A study of Homo sapiens with 6 samples.

Results

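The 7 transcripts described here encode the ISG15 conjugation machinery and ISG20, and they were taken by gene symbol from the 37887 rows of the count table for BT-549 cells, an established TNBC cell line. The group comprised the modifier ISG15, the E1 enzyme UBA7, the E2 enzyme UBE2L6, the E3 ligases HERC5 and HERC6, the deconjugating enzyme USP18 and the exonuclease ISG20. All 7 symbols were present and all 7 passed the filter on low counts. RNA-seq had been performed on 3 libraries of control cells (shCTL) and 3 libraries of PBRM1-silenced cells (shPBRM1), each from cells cultured in triplicate. PBRM1 is the chromatin-targeting subunit of the PBAF remodeling complex. By their titles the shCTL libraries carried a control shRNA, and by their treatment labels they received the vehicle DMSO (0.1% in the series design). The shPBRM1 libraries carried a PBRM1 shRNA and received doxycycline (500 ng/ml), which switches on a tet-regulated hairpin. According to the design text both treatments were given to a stable line with a tet-inducible PBRM1 hairpin. An effect of doxycycline and an effect of PBRM1 silencing therefore cannot be told apart. The titles and the design text differ on the controls. Whether shCTL cells carried a control hairpin or the PBRM1 hairpin without doxycycline is not settled by these sources. The comparison rests on a single cell line, and the labels do not say which PBRM1 hairpin was used.

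ISG15 is a ubiquitin-like protein that is attached to lysines of other proteins after IFN stimulation. The reaction follows the ubiquitin cascade. UBA7 activates ISG15, UBE2L6 carries it, and a HERC ligase transfers it to the target, while USP18 removes it again. USP18 also binds the IFNAR2 chain and dampens type I IFN signaling. ISG20 is an RNA exonuclease with antiviral activity and takes no part in conjugation. These genes are classical ISGs, induced through the ISGF3 complex, which binds ISREs. The comparison asks how the transcripts of this cascade, of which ISG15 is a gene the study followed, differ when PBRM1 is silenced.

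The regions upstream of the transcription start were searched for GAAA, any 2 bases and GAAA again, the core letters of an ISRE, and for TTCNNNGAA, the letters of a gamma-activated sequence, on both strands. Windows of 250 bases before to 50 bases after the start were found for ISG15, UBE2L6, HERC5, HERC6 and ISG20 among the RefSeq sequences of GRCh38.p14. These starts are not those of the GENCODE gene spans given below. The windows of ISG15, UBE2L6 and ISG20 lie inside those spans, and positions before the start refer to the RefSeq start. The ISRE core was present in those of ISG15, HERC5 and ISG20, against 3.57% of all 35116 windows. TTCNNNGAA was in none of the members' windows and in 7.66% of all windows. Matches are letters in a window and do not show binding. The 250 upstream bases of the 3 windows with a match, and of HERC6, which has none and lies beside HERC5, are given 5′ to 3′ with the matches in capitals.
ISG15, chr1:1013247-1013496, plus strand: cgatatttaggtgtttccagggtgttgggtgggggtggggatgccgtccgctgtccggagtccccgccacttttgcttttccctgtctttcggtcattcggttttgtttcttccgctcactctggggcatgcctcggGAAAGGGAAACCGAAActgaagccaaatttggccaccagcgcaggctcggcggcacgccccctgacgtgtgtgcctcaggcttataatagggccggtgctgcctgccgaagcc
HERC5, chr4:88456869-88457118, plus strand: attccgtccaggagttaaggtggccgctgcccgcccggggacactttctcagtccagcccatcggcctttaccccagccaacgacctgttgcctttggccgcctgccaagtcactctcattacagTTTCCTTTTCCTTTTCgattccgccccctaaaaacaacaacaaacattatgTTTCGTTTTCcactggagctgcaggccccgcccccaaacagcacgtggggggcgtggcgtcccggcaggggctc
ISG20, chr15:88638766-88639015, plus strand: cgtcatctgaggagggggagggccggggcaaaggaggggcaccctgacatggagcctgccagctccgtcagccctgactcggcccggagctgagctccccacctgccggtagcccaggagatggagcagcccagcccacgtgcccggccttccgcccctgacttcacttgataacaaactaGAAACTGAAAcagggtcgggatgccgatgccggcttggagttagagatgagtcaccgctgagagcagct
HERC6, chr4:88378602-88378851, plus strand: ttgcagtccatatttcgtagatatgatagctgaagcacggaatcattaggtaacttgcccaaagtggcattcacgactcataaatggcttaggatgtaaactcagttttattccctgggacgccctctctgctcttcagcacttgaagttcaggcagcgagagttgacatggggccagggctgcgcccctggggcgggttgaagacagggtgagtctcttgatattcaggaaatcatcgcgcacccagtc
In ISG15 a pair of overlapping matches began 113 and 107 bases before the start, in the same orientation as the gene. HERC5 held 3 matches, all on the opposite strand, a pair of which overlap, with first bases at 125, 119 and 74 bases before the start. ISG20 held 1 match, 69 bases before the start. Neither of the 2 annotated UBE2L6 windows contained the letters.

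Depth was high in every library, between 36429395 and 65096297 counts in total. A count of 3, taken as the floor of detection, corresponded to 0.0461 to 0.0824 CPM (counts scaled to library size), for counting error only. PBRM1 was at 26.5% of its control level in shPBRM1 cells. Of the markers of the line, VIM and CD44 were abundant at 621 ± 15.9 and 1551 ± 25.6 CPM (SD, n = 3) in shCTL. ZEB1 had a log2 fold change of -0.55, and FN1, also mesenchymal, was called lower at -1.33. At an adjusted p below 0.05 of any size, 2 of these 4 markers were lower and 2 were higher, against 33.2% and 31.5% of all tested genes. The summed level of the 4 was 2891 to 2967 CPM in shCTL and 3230 to 3289 CPM in shPBRM1. Of 5 genes that mark other breast cancer or epithelial cells, ESR1, PGR and EPCAM had no more than 12 counts in any library, ERBB2 was at 51.3 ± 1.10 CPM in shCTL with a log2 fold change of -0.035, and the epithelial cadherin CDH1 was called lower at -1.73, with 186, 226 and 271 counts in shCTL and 110, 58 and 77 in shPBRM1. The summed level of 7 leukocyte and endothelial markers was 0.938 to 1.63 CPM in shCTL and 0.879 to 0.925 CPM in shPBRM1. CD3E and MS4A1, which mark T and B cells, had no counts in any library. PTPRC, a leukocyte marker, was called lower with at most 44 counts, and CD14, a monocyte marker, was called higher, also with at most 44 counts. The part of these markers in the results was not tested. Replicate 1 of shPBRM1 stood apart from the others of its group, since its counts differed from those of replicates 2 and 3 by a chi-square over degrees of freedom of 21.1 and 25.2, against 7.12 between those replicates and 4.88 to 7.25 between controls. Without it all 7 genes described here were still called lower, with log2 fold changes from -5.48 for HERC6 to -2.51 for ISG20.

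All 7 transcripts were called lower in shPBRM1 than in shCTL cells, where a call needs an edgeR quasi-likelihood p below 0.05 after Benjamini-Hochberg adjustment over 15450 genes and more than a 2-fold difference. Of all tested genes, 9.68% were called lower and 2.87% higher. In each of the 7 the groups did not overlap, with every shPBRM1 library below every shCTL library, which was the case for 35.0% of tested genes, while 33.3% had every shPBRM1 library above. The median log2 fold change of the 7 was -4.46, and that of all tested genes was -0.0080. Summed over the 7 genes, the level was 652 ± 3.85 CPM in shCTL and 40.0 ± 1.12 CPM in shPBRM1 (SD, n = 3). In bulk RNA, fewer cells expressing a gene and less RNA per cell cannot be told apart.

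**Figure D1:**
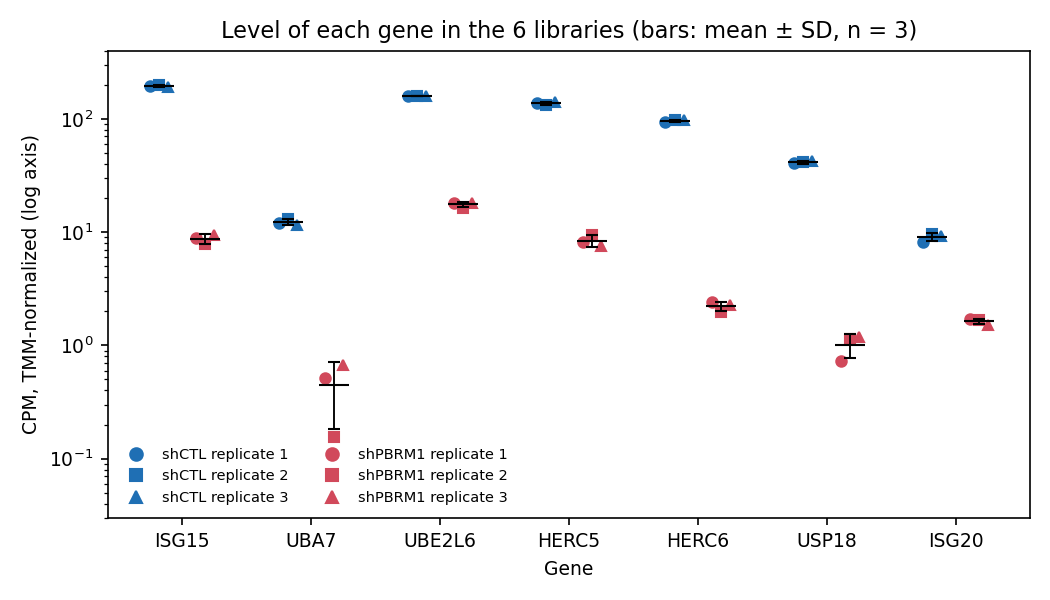
CPM (TMM-normalized, log axis) of the 7 genes in each library, with shCTL in blue and shPBRM1 in red, symbols for the replicate numbers, and black bars for the mean and SD (n = 3). Every shPBRM1 library lies below every shCTL library for each gene, and the widest spread is that of UBA7 in shPBRM1, between 0.154 and 0.675 CPM.

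ISG15, the modifier itself (ENSG00000187608, chromosome 1, 1001138 to 1014540, plus strand, in GENCODE v29 on GRCh38), had 7262, 9749 and 9590 counts in shCTL replicates 1, 2 and 3. It had 532, 306 and 606 counts in shPBRM1 replicates 1, 2 and 3. After normalization these were 195, 201 and 190.2 CPM against 8.86, 7.86 and 9.51 CPM, so the control libraries were close together and none came near the silenced ones. ISG15 fell to 4.48% of its control level (log2 fold change -4.46, SE 0.083, edgeR adjusted p = 4.67e-27). Its level was therefore 22.3-fold lower. The annotation places an antisense transcript and a processed pseudogene on the opposite strand of ISG15, and the pseudogene shares 36 exon bases with it. Neither has a row in the count table.

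UBA7, the E1 enzyme (ENSG00000182179, chromosome 3, 49805207 to 49813946, minus strand), had 448, 640 and 587 counts in shCTL and 31, 6 and 43 counts in shPBRM1. In CPM this was 12.3 ± 0.797 against 0.448 ± 0.267 (SD, n = 3), which left 3.65% of the control level (log2 fold change -4.65, SE 0.58, edgeR adjusted p = 3.52e-16). The shPBRM1 libraries differed among themselves more than for any other member, since replicate 2 had 0.154 CPM (exact Poisson 95% interval 0.0566 to 0.336, counting error only) and replicate 3 had 0.675 CPM (0.488 to 0.909). Without shPBRM1 replicate 2 the log2 fold change was -4.35.

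UBE2L6, the E2 enzyme (ENSG00000156587, chromosome 11, 57551656 to 57568284, minus strand), had 5971, 7758 and 8044 counts in shCTL and 1094, 639 and 1156 counts in shPBRM1. The CPM values were 160.0, 159.6 and 159.5 in shCTL, the tightest group of any member. In shPBRM1 they were 18.2, 16.4 and 18.1 CPM, so UBE2L6 kept 11.0% of its control level. It fell by 3.18 on the log2 scale (SE 0.049, edgeR adjusted p = 1.09e-25).

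HERC5, the main ligase for ISG15 in human cells, and HERC6, which fills that role in mice, are neighbors on chromosome 4, on the plus strand. HERC6 (ENSG00000138642) spans 88378739 to 88443111 and HERC5 (ENSG00000138646) spans 88457117 to 88506163. HERC5 counts were 5155, 6472 and 7173 in shCTL and 489, 371 and 478 in shPBRM1. HERC6 counts were 3520, 4714 and 4966 in shCTL and 145, 77 and 144 in shPBRM1. HERC5 fell from 138 ± 4.55 to 8.39 ± 1.04 CPM and HERC6 from 96.6 ± 2.11 to 2.22 ± 0.221 CPM (SD, n = 3). HERC5 thus had a log2 fold change of -4.06 (SE 0.10, edgeR adjusted p = 4.85e-25) and HERC6 one of -5.43 (SE 0.085, edgeR adjusted p = 1.50e-26). Every shPBRM1 library lay far below every control library for both ligases. HERC6 had the largest decrease of the 7 and was 58th from the most decreased of 15450 tested genes.

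USP18, the ISG15 protease (ENSG00000184979, chromosome 22, 18149899 to 18177397, plus strand), had 1508, 2016 and 2150 counts in shCTL and 44, 44 and 75 counts in shPBRM1. This was 41.5 ± 1.11 CPM against 1.01 ± 0.244 CPM (SD, n = 3), or 2.44% of the control level. Its log2 fold change of -5.37 (SE 0.21, edgeR adjusted p = 3.47e-22) was close to that of HERC6. USP18 has a near-identical copy, USP41, on the same chromosome, and 479 of 2080 distinct 50-base stretches of the USP18 transcripts (23.0%) also occur in USP41 transcripts. Reads from those stretches cannot be assigned with certainty. The USP41 row had 6, 8 and 6 counts in shCTL and 0 in each shPBRM1 library. With both rows summed, the log2 fold change was -5.37. Of the other members, UBA7 shared 60 of 4820 such stretches with other genes, all of them with MIR5193, a miRNA inside it that had 0 counts, HERC6 shared 38 of 6070 and ISG20 shared 9 of 7626, and ISG15, UBE2L6 and HERC5 shared none.

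ISG20, the exonuclease (ENSG00000172183, chromosome 15, 88636153 to 88656483, plus strand), had 306, 472 and 466 counts in shCTL and 102, 65 and 97 counts in shPBRM1. The level fell from 9.05 ± 0.773 to 1.63 ± 0.0951 CPM (SD, n = 3; log2 fold change -2.48, SE 0.087, edgeR adjusted p = 1.62e-14). The level left was 5.55-fold lower than in the controls, and ISG20 had the smallest decrease of the group. It was 371st from the most decreased of all tested genes.

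The members did not fall to the same extent. Ratios to ISG15 in the same library were taken from log2 CPM with a prior count of 2, a small count added before the log. Apart from that prior count, they do not depend on the scaling of the libraries. UBE2L6 had log2 ratios of -0.28, -0.33 and -0.25 in shCTL and of 1.04, 1.06 and 0.93 in shPBRM1. The UBE2L6 ratio was thus higher in every shPBRM1 library than in any control, a shift of 1.30. These ratios are not corrected for transcript length and give no order of levels. ISG20 shifted up by 2.04 and HERC5 by 0.44 relative to ISG15. HERC6 shifted by -0.95 and USP18 by -0.85. In these 5 ratios the groups did not overlap, and each had p = 0.1 in the exact two-sided permutation test, the smallest p that 3 libraries against 3 allow (0.12 after adjustment over the 6 ratios). The share of all tested genes without overlap in their ratio to ISG15 was not computed. A gene with no change between the groups would also shift up relative to ISG15, so non-overlap does not set these members apart from other genes. The ratio of UBA7 to ISG15 was -4.01, -3.93 and -4.03 in shCTL and -4.00, -5.35 and -3.74 in shPBRM1, so that the groups overlapped (p = 0.9, exact permutation test). Its shift was -0.37 with all libraries, -0.49 with a prior count of 0.5, and 0.12 without shPBRM1 replicate 2.

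**Figure D2:**
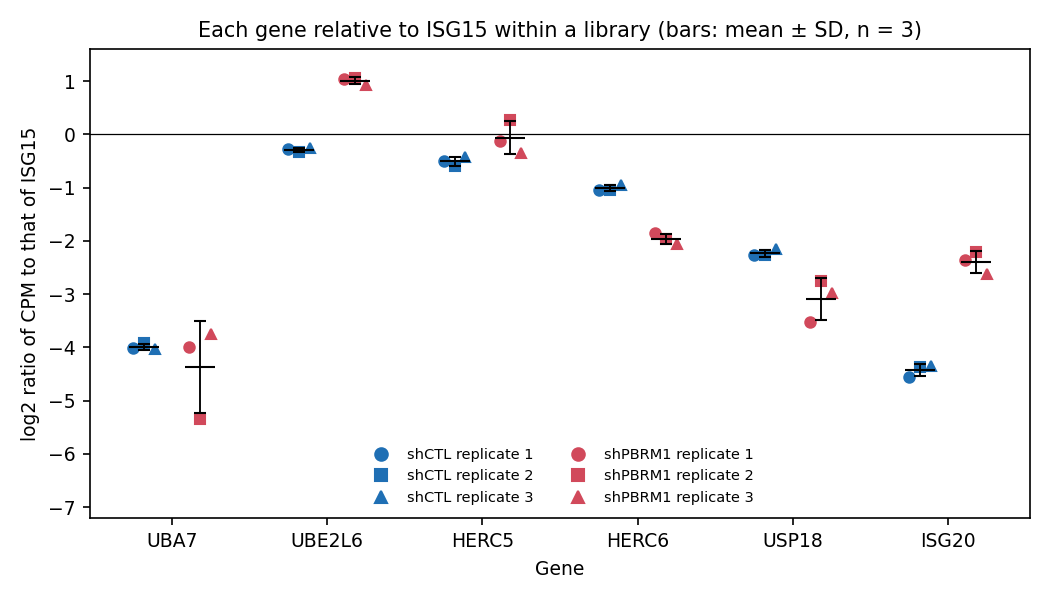
Log2 ratio of each gene's CPM to that of ISG15 in the same library, with a prior count of 2. The shCTL libraries are in blue, shPBRM1 in red, and black bars give the mean and SD (n = 3). UBE2L6 and ISG20 stand 1.30 and 2.04 higher relative to ISG15 in shPBRM1 libraries, HERC6 and USP18 stand lower, and the UBA7 values of the groups overlap.

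Ordered by log2 fold change, the decreases ran from HERC6 (-5.43) and USP18 (-5.37) through UBA7 (-4.65), ISG15 (-4.46), HERC5 (-4.06) and UBE2L6 (-3.18) to ISG20 (-2.48). Neighbors in this order were compared by their ratio within each library. The ratios of HERC6 to USP18, of USP18 to UBA7 and of UBA7 to ISG15 overlapped between the groups, so these adjacent places are not set beyond their spread. HERC6 and USP18 did stand apart from ISG15, as given above. The ratios of ISG15 to HERC5, of HERC5 to UBE2L6 and of UBE2L6 to ISG20 did not overlap. Each of these had p = 0.1 in the exact permutation test, the smallest that 3 libraries against 3 allow. The pairs were taken from the observed order.

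Levels of different genes were compared per kilobase of exon (CPM per kb, all annotated exons merged). In shCTL cells ISG15 was highest at 207 ± 5.55 CPM per kb, followed by UBE2L6 at 72.7 ± 0.116 and HERC5 at 28.9 ± 0.955 (SD, n = 3). USP18 at 19.5 ± 0.523, HERC6 at 16.7 ± 0.363, UBA7 between 2.56 and 2.90, and ISG20 at 1.23 ± 0.105 CPM per kb followed. No neighbors in this order overlapped in their ranges. In shPBRM1 cells ISG15 was at 9.29 ± 0.881 and UBE2L6 at 8.01 ± 0.463 CPM per kb, and HERC5 followed at 1.76 ± 0.218. USP18 (0.476 ± 0.115) and HERC6 (0.383 ± 0.0382) then overlapped, and ISG20 (0.221 ± 0.0129) stood above UBA7 (0.0987 ± 0.0587 CPM per kb). ISG15 made up 59.4% ± 0.838 of the summed level per kb of the 7 transcripts in shCTL and 45.8% ± 1.76 in shPBRM1, and UBE2L6 made up 20.8% ± 0.276 and 39.6% ± 0.774 (SD, n = 3). The order depends on the length used. With the length of the principal transcript alone, a choice made after the values were seen, ISG15 and UBE2L6 overlapped in shPBRM1 cells at 12.3 ± 1.17 and 13.0 ± 0.752 CPM per kb, HERC6 (25.6 ± 0.557) ranked above USP18 (19.5 ± 0.523) in shCTL without overlap, and ISG20 ranked above UBA7 in both groups and above HERC6 and USP18 in shPBRM1.

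**Figure D3:**
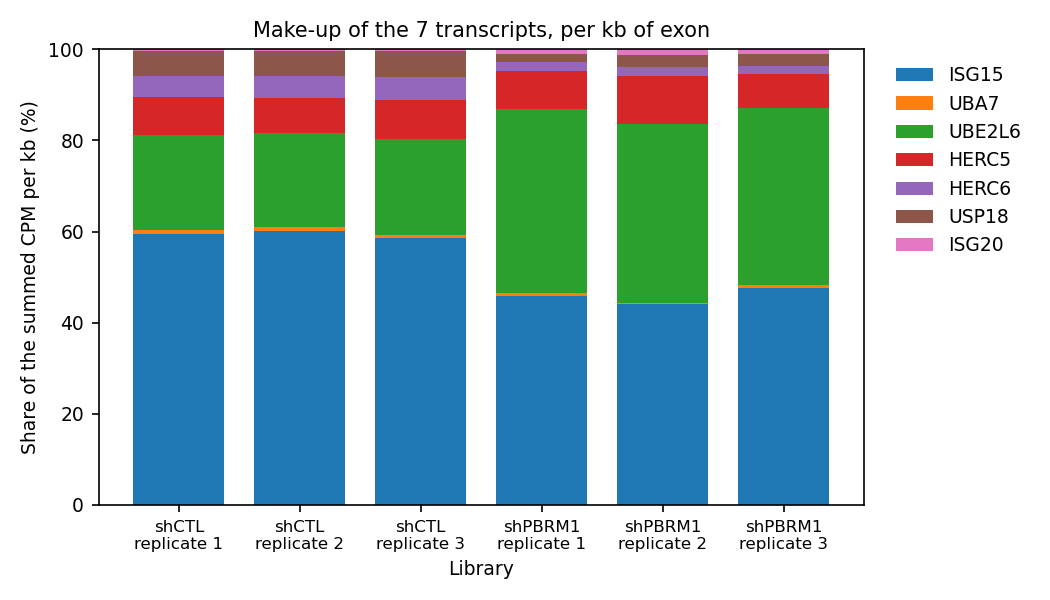
Share of each gene in the summed CPM per kb of the 7 transcripts, in percent, for each library, with all annotated exons merged as the length. ISG15 takes about 59.4% in shCTL and 45.8% in shPBRM1 libraries on average, and the UBE2L6 share goes from 20.8% to 39.6%.

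Among the relatives of these enzymes outside the ISG15 pathway, 1 gene was called. In the HERC, E1, E2, USP and ubiquitin-like modifier families, 105 of 108 listed genes other than the members were tested. Of these, 1 was called lower and 0 higher (edgeR), against 9.68% and 2.87% of all tested genes. At an adjusted p below 0.05 of any size, 29 were lower and 50 were higher, against 33.2% and 31.5%. Their log2 fold changes lay between -1.10 and 0.70. The gene called lower was USP51, a deubiquitinase (log2 fold change -1.10, edgeR adjusted p = 3.43e-04), at 1.41 ± 0.0180 CPM in shCTL and 0.646 ± 0.136 CPM in shPBRM1.

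UBA1 and UBA6, the E1 enzymes for ubiquitin, had log2 fold changes of 0.29 and -0.10, and UBA1 was at 259 ± 3.26 CPM in shCTL and 317 ± 14.6 CPM in shPBRM1 (SD, n = 3). UBE2L3, the closest relative of UBE2L6 and an E2 for ubiquitin, was at 95.7 ± 2.31 and 105 ± 2.18 CPM (log2 fold change 0.13). The large HERC genes HERC1 and HERC2 had log2 fold changes of -0.053 and 0.13, and HERC4 had -0.064. HERC3, which lies beside HERC5 in the same cluster, had at most 9 counts in any library and was not tested. Among 9 exonucleases related to ISG20, 8 were tested and none was called in either direction, against 9.68% lower and 2.87% higher of all tested genes. Their median log2 fold change was 0.12, with AEN at -0.56 and ISG20L2 at 0.28. At an adjusted p below 0.05 of any size, 3 of these were lower and 4 were higher, against 33.2% and 31.5% of all tested genes.

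Of 8 other genes linked to ISG15, 6 were tested and none passed both thresholds in edgeR, against 9.68% lower and 2.87% higher of all tested genes. At an adjusted p below 0.05 of any size, 2 were lower and 3 were higher, against 33.2% and 31.5%. TRIM25, a ligase that is also a reported ISG15 E3 enzyme, had 234 ± 3.99 CPM in shCTL and 123 ± 0.520 CPM in shPBRM1 (SD, n = 3; log2 fold change -0.93, edgeR adjusted p = 1.45e-16), which is under the 2-fold minimum. ARIH1, another reported ligase, was at -0.042 (edgeR adjusted p = 0.353). The proteases USP5, USP13 and USP14, which can react with ISG15, had log2 fold changes of 0.44, 0.58 and 0.40, and USP2 had -0.47. ITGAL and ITGB2, the chains of the LFA-1 receptor for secreted ISG15, had at most 12 counts in any library and were not tested.

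Of 6 genes of the type I IFN receptor, its kinases and ISGF3, 2 were called lower and 0 higher, against 9.68% and 2.87% of all tested genes. At an adjusted p below 0.05 of any size, 4 were lower and 2 were higher, against 33.2% and 31.5%. STAT2 and IRF9, subunits of ISGF3, had log2 fold changes of -2.36 and -1.88 (edgeR adjusted p of 5.63e-23 and 9.19e-13). Each is nearer to 0 than the values of ISG15 and its enzymes, and the difference was not tested. IFNAR2, the chain USP18 binds, went from 2.50 ± 0.364 to 3.99 ± 0.459 CPM (SD, n = 3; log2 fold change 0.69, edgeR adjusted p = 1.76e-04), also under the 2-fold minimum. Of 14 proteins known to be modified by ISG15, the transcripts of 4 were lower and none was higher. MX1, IFIH1 and DDX58, themselves ISGs, had the largest decreases, with log2 fold changes of -9.35, -5.24 and -3.25. At an adjusted p below 0.05 of any size, 10 were lower and 3 were higher, against 33.2% and 31.5% of all tested genes. Below the 2-fold minimum, the values ran from -0.42 for CHMP5 to 0.53 for PCNA. The median of the 14 was -0.27.

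**Figure D4:**
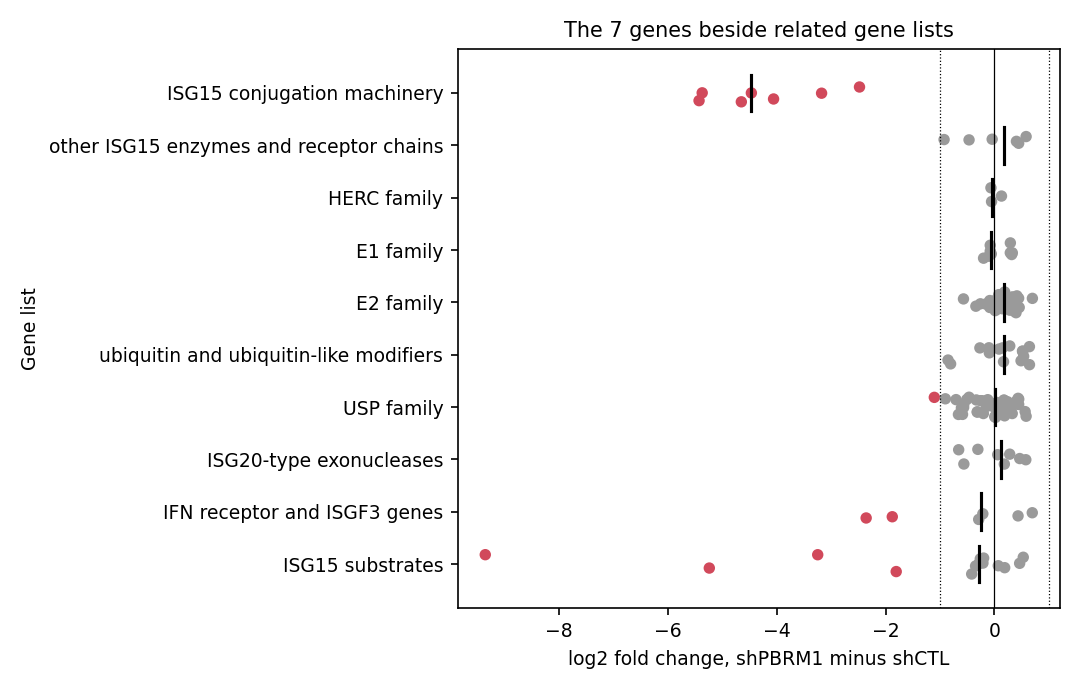
Log2 fold change (shPBRM1 minus shCTL) of each tested gene in the 7-gene group and in 9 related lists, in red where called lower and in gray otherwise, with black lines for the medians and dotted lines at a fold change of 2. The group has its median at -4.46, and its 7 genes lie to the left of all tested genes of the HERC, E1, E2, modifier and USP families.

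The genes beside the members were described as well, taking the 2 nearest tested protein-coding genes on each side. No limit was set on distance, which ran from 177 bases (INKA1 to UBA7) to 952882 bases (ESS2 to USP18). Of 24 such genes that are not members, 9 were lower (37.5%) and 0 were higher, where 9.68% of all tested genes were lower. At the ISG15 locus, HES4, a transcriptional repressor, and AGRN, which encodes the proteoglycan agrin, were at -2.27 and -2.63 in log2 fold change (edgeR adjusted p of 3.50e-17 and 1.94e-24). They lie on either side of ISG15, and the next tested gene beyond AGRN, C1orf159, had 0.29. Beside UBE2L6, SERPING1, the C1 inhibitor of complement, fell from 212, 247 and 317 counts to 4, 4 and 22 counts (log2 fold change -4.94). PPM1K, the next tested gene before HERC6, had -1.82, and MFGE8 and HAPLN3 after ISG20 had -2.15 and -1.72. These genes are not close to the members. PPM1K lies 93970 bases from HERC6, and HAPLN3 and MFGE8 lie 220805 and 242200 bases from ISG20. The other 3 that were lower had low counts. INKA1, 177 bases from UBA7, had 14, 34 and 31 counts in shCTL and 14, 17 and 14 in shPBRM1. Its call rests on a log2 fold change of -1.01 and was lost with the replicate block (-0.95, under the 2-fold minimum) and with DESeq2 (adjusted p = 0.105). SMTNL1 beside UBE2L6 had at most 28 counts and TUBA8 beside USP18 at most 36 counts in any library. Read-through from the members into these genes was not tested. The remaining 15 neighbors did not pass both thresholds, and their values ran from -0.94 for PLEKHN1 to 0.72 for TIMM10. The median log2 fold change of the 24 neighbors was -0.66, against -0.0080 for all tested genes.

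**Figure D5:**
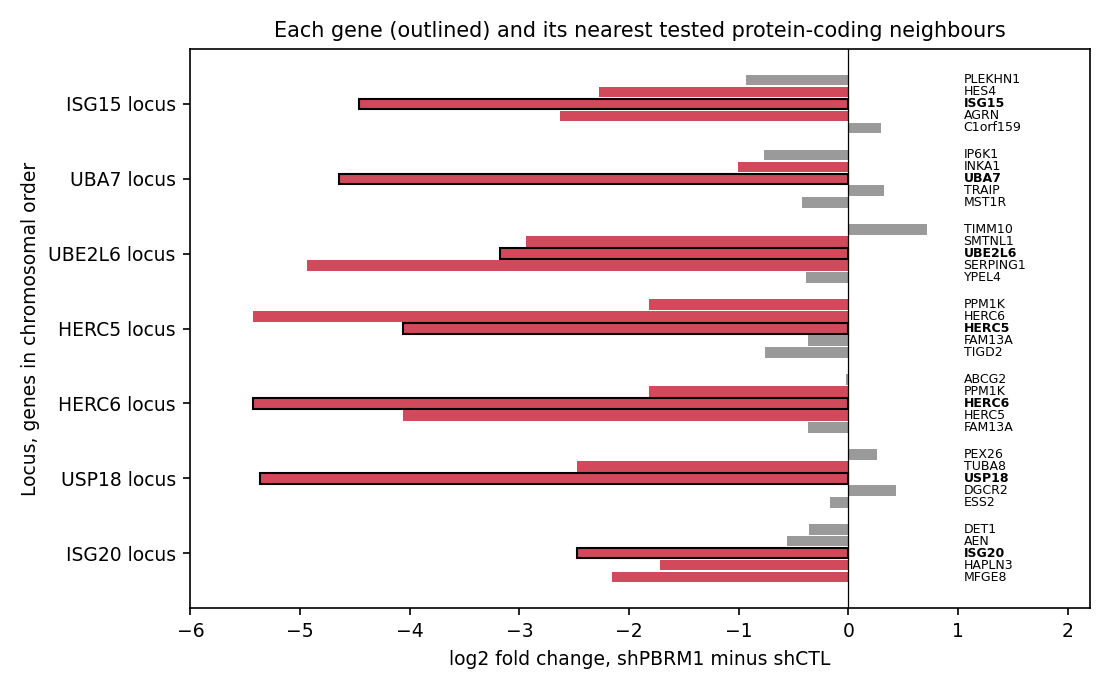
Log2 fold change (shPBRM1 minus shCTL) of each of the 7 genes (outlined) and of the 2 nearest tested protein-coding genes on each side, in chromosomal order from top to bottom at each locus, in red where called lower and in gray where not called. Of 24 neighbors outside the group 9 are red, among them HES4, AGRN and SERPING1.

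The genes whose pattern over the 6 libraries was most like that of ISG15 were looked for by the root mean square distance between log2 CPM profiles centered on their own means, among 11540 other genes averaging 100 counts or more per library. The 5 nearest were PLAAT4, CCL5, ENPP2, APOBEC3F and LHX9, at distances of 0.0877, 0.113, 0.121, 0.126 and 0.144. PLAAT4 is a phospholipase-like tumor suppressor, CCL5 a chemokine, ENPP2 the secreted enzyme autotaxin, APOBEC3F a cytidine deaminase and LHX9 a homeobox factor. Their log2 fold changes ran from -4.29 for CCL5 to -4.82 for APOBEC3F. The profiles were log2 CPM with a prior count of 2, which draws differences at low counts toward 0. In shPBRM1 PLAAT4 had 15, 10 and 18 counts, APOBEC3F 25, 15 and 29, and LHX9 22, 12 and 28. CCL5 had 56, 31 and 62 and ENPP2 54, 36 and 57. The part of the prior count in these places was not tested. Of the other members, HERC5 came nearest, in place 15 at a distance of 0.289, and ISG20 was in place 149 at 1.03. The measure takes in both the size of the difference between the groups and the spread of replicates. UBA7, whose log2 fold change is nearer to that of ISG15 than is that of HERC5, was in place 44 at 0.533.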

How the data were processed

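RNA-seq was analyzed for 3 shCTL and 3 shPBRM1 libraries of BT-549 cells, made with a stranded poly(A) kit. The deposited values are raw counts, 1 row per symbol, which the authors had not normalized. The submitters' processing notes name STAR 2.7.9a, featureCounts, DESeq2 1.24.0 and GRCh38.p7. The annotation and the use of strand in counting are not given in the sources used here. Titles gave each library its group and replicate number. The shPBRM1 columns carry that name, and the control columns carry the name of the line and end in the replicate number.

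The 15450 genes kept by filterByExpr were compared by the quasi-likelihood test of edgeR 4.0.16 with TMM factors (R 4.3.3), adjusted after Benjamini-Hochberg. A call required adjusted p below 0.05 together with more than 2-fold difference. The authors' own test was DESeq2. SEs and ratios between members were computed from replicate log2 CPM values (prior count 2). Ratios were compared with SciPy 1.17.1. Exon lengths and positions are those of GENCODE v29 on GRCh38, matched by symbol. Lengths from another annotation than the authors' affect levels per kilobase. The edgeR and DESeq2 calls were checked on simulated counts.

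The 7 genes, the related lists and the tests were chosen with earlier results of these data known. The text names the 7 genes, genes sharing reads with them, their closest relatives, in each list the genes with the largest changes among those called, the 2 nearest tested neighbors on each side, and the 5 genes most like ISG15. One gene was taken out of the related lists and their counts, and is not reported here. List genes that were not called, and places beyond the fifth in likeness to ISG15, were named after their values were seen.

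Same-numbered libraries of the groups deviated together, with correlations across 5622 genes of 0.734, 0.593 and 0.419 for numbers 1, 2 and 3. Different-numbered libraries had -0.671 to 0.464, so control replicate 2 also deviated together with shPBRM1 replicate 3. The pairing therefore comes from the numbers in the titles and these correlations. Alternatives were DESeq2 1.42.0, RLE factors, library size only, other filters and thresholds, the replicate block, a prior count of 0.5 and each library left out.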

Additional observations from a re-analysis of the deposited data

How the results depend on the processing

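All 7 genes were called lower in the main fit and in each of the alternatives: DESeq2, RLE or plain library-size scaling, an absent or stricter (mean of 50 counts) filter, the replicate block, glmTreat, no 2-fold minimum, adjusted p below 0.001, and each library left out. With the replicate block the log2 fold change was -4.46 for ISG15, -4.65 for UBA7 and -2.47 for ISG20, and the block changed no call of the 7, while it ended that of the neighbor INKA1. Over all alternatives the log2 fold change of UBA7 ranged from -5.04 to -4.35 and that of USP18 from -5.53 to -5.15. With each library left out, the shift relative to ISG15 was -0.68 to 0.12 for UBA7, 1.27 to 1.34 for UBE2L6, 0.27 to 0.58 for HERC5, -1.0 to -0.90 for HERC6, -1.02 to -0.63 for USP18 and 1.94 to 2.15 for ISG20. The UBA7 ratio reversed to 0.12 without shPBRM1 replicate 2, the library with 6 UBA7 counts.

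Counts over all genes moved with the filter and the threshold. They were 941 lower and 270 higher with the stricter filter, 913 lower and 175 higher with glmTreat, and 5137 lower and 4863 higher without a fold change minimum, against 1496 and 443. Leaving out each library gave 1485 to 1604 lower and 441 to 493 higher genes. The USP family had 2 genes called lower with DESeq2 instead of 1. The level of ISG15 over that of UBE2L6 per kb was 2.85 in shCTL and 1.16 in shPBRM1, and 2.33 and 0.945 with the principal transcript, an alternative chosen after seeing the data. Values of single genes were not checked for outlying libraries with 3 per group, and UBA7 and USP18 in shPBRM1 rest on 6 to 75 counts per library.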
